A study of Mus musculus with 9 samples.

Results

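The genes described here are 9 markers used to recognise bile duct epithelium and liver progenitor cells: Sox9, Sox4, Onecut2, Cd24a, Prom1, Tspan8, Epcam, Cftr and Spp1. Members were taken by gene symbol, and where several probe sets of the array carried a symbol the one of highest mean would be used. Of the 9, 8 had a probe set assigned to that gene alone, 1 probe set each, among 19938 genes so assigned. Spp1, which codes for the secreted protein osteopontin, was not analysed here. The unit is log2 expression, as robust multi-array averaging (RMA) gives it, so a difference of 1 is a 2-fold change, and SE is the standard error of such a difference.

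The study holds 9 mouse arrays in 3 groups of 3, all on a C57Bl/6 background. WT liver is liver of mice with loxP-flanked Notch1 and no Cre, and KO liver comes from mice that carry MxCre on top of that allele. All liver mice received 300 µg of the double-stranded RNA poly(I:C) at 4 weeks of age, on days 0, 3 and 6, so the WT livers share that treatment. MxCre is driven by an interferon-responsive promoter, which is active in many cell types, and the deleted exon codes for the signal peptide of Notch1. Cre was present in the KO mice only, so its own effect cannot be told apart from that of the deletion. The age at tissue collection is not given in the sources used here. AS cell line denotes 3 separately derived angiosarcoma lines, grown in long-term culture from hepatic endothelial cells of Notch1 knockout mice that bore a visible tumour. The extraction text common to all 9 arrays names PHH without explaining it, so it is not settled whether the livers were extracted whole.

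Bile ducts form from hepatoblasts, the bipotent cells of the fetal liver, next to the portal vein. Jag1 on portal cells activates Notch2 in neighbouring hepatoblasts, and the transcription factor Sox9 is among the first genes to mark those that become cholangiocytes, the cells that line bile ducts. Sox4 acts beside Sox9 in duct formation, and Onecut2 is a homeodomain factor that works with Onecut1 in the choice between hepatocyte and duct. In the adult liver several of these genes mark the duct cells and the progenitor-like cells that spread after injury.

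Cell type markers showed how far the groups differ as tissues. The 12 genes of the endothelium list had a mean of 12.07 to 12.49 per liver array and 5.97 to 6.28 per AS line, where array medians over all probe sets ran from 6.53 to 6.63. Cdh5 and Pecam1, which define endothelium, stood at 5.47, 5.66 and 5.45 and at 5.65, 5.81 and 5.39 in AS lines 1, 2 and 3. The labelled endothelial origin of the lines was thus not visible in these markers, and "AS cell line" is used as a label only. The livers were uneven in hepatocyte genes: the mean of 18 such genes was 11.08, 12.15 and 12.13 in the WT livers, while KO replicates 1, 2 and 3 had 9.57, 12.02 and 8.52. Notch1 itself was at 11.69, 11.02 and 11.71 in the WT livers, 7.84, 8.75 and 8.52 in the KO livers and 8.75, 8.61 and 7.83 in the lines.

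RefSeq promoter entries (build GRCm38.p6) existed for 5 of the 8 measured members, and 3 are shown here because these genes were higher in the lines than in WT livers and stand for different roles. Each is the 250 bases before the annotated start, 5′ to 3′ on the gene's strand, with matches to 4 short motifs in capitals. The motifs, searched on both strands, were TGGGAA for RBPJ, through which Notch acts on DNA, ATTGAT for Onecut factors, ACAATG for Sox factors and GGAATG for TEAD factors.
Tspan8, chr10:115817034-115817283, plus strand: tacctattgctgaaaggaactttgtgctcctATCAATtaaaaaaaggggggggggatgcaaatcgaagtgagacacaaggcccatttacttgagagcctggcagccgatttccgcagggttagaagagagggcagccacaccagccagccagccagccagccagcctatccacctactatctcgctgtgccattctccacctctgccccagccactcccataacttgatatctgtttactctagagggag
Prom1, chr5:44101737-44101986, minus strand: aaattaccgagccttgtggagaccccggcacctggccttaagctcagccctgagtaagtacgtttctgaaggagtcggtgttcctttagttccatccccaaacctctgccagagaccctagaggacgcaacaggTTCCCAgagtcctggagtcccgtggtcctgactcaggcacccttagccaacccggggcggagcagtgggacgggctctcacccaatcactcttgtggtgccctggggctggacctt
Sox4, chr13:28953700-28953949, minus strand: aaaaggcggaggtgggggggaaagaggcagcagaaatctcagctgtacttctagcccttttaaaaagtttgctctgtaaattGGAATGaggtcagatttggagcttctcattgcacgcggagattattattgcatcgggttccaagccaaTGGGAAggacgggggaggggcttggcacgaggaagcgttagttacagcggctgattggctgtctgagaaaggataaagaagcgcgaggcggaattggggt
Tspan8 held the Onecut letters on the opposite strand, beginning 219 bases before the start. Prom1 held the RBPJ letters on the opposite strand at 116 bases. Sox4 held them on its own strand at 100 bases, and the TEAD letters at 168 bases. The second annotated Prom1 start, Epcam and Cftr held none of the 4 motifs in this window. Of 32851 promoters of the same length, 21.6% held the RBPJ letters, 6.72% the Onecut letters, 10.7% the Sox letters and 12.6% the TEAD letters, so a match is a description of sequence and not a binding site.

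The KO against WT comparison sets livers with MxCre and deleted Notch1 beside livers with neither. Sox9, Cd24a, Prom1 and Epcam were lower in all 3 KO livers than in any WT liver, by 0.53 to 1.00 log2 units, while Sox4 was higher in 2 of the 3 KO livers. Onecut2, Tspan8 and Cftr overlapped between the genotypes. No member passed an adjusted p of 0.05 in limma, where 0 of 19938 genes did (0%); 4 of 8 members had an unadjusted p under 0.05, against 22.5% of all genes. Without overlap, 4 of 8 were lower and 0 higher, against 11.1% and 19.2% of all genes. In RNA from mixed tissue, fewer cells of a type and less RNA per cell cannot be told apart.

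**Figure D1:**
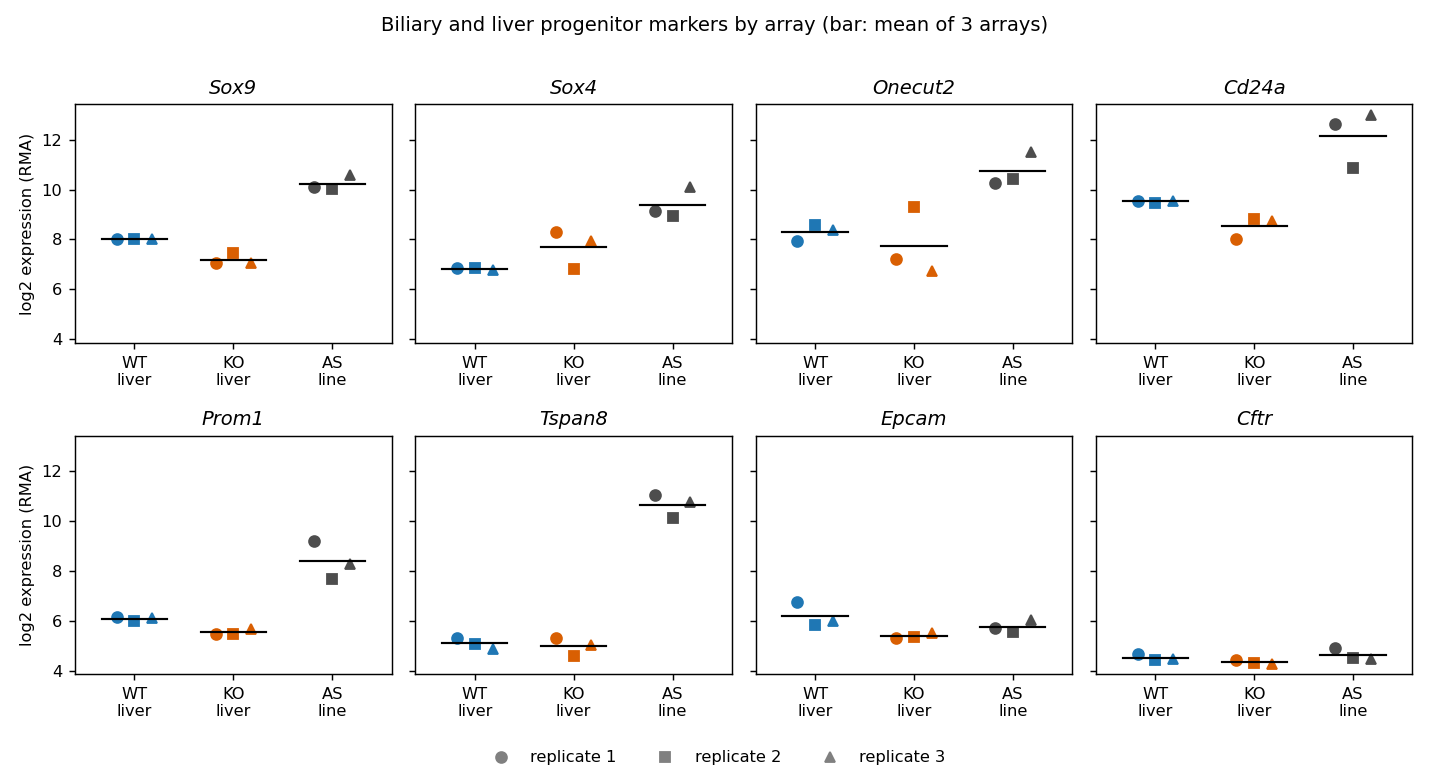
Log2 expression (RMA) of the 8 measured members on each of the 9 arrays, grouped as WT liver, KO liver and AS cell line; symbols mark replicates 1 to 3 and the bar is the mean of 3 arrays. Sox9, Sox4, Onecut2, Cd24a, Prom1 and Tspan8 lie higher in all 3 lines than in any liver, while Epcam and Cftr stay below 7 on every array.

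Sox9 stood at 8.02, 8.001 and 8.02 in WT replicates 1, 2 and 3, at 7.03, 7.44 and 7.03 in the KO livers and at 10.08, 10.00 and 10.58 in the AS lines. The 3 groups were fully separate, with the lines highest and the KO livers lowest. The KO livers held 55.6% of the WT level, -0.85 on the log2 scale (SE 0.127, adjusted p = 0.0995). Leaving out KO replicate 2 gave -0.98 with an adjusted p of 0.0145, and over 13 other settings the adjusted p ran from 0.00945, with array weights, to 0.288. In the lines Sox9 rose by 3.05 log2 units over the KO livers (SE 0.203, adjusted p = 0.000653), which is 8.28-fold, and by 2.20 over the WT livers (SE 0.167, adjusted p = 0.000543), which is 4.61-fold.

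Sox4, a factor of the SoxC class that is active in progenitors of many tissues, behaved differently in the livers. It stood at 6.85, 6.86 and 6.75 in the WT livers and at 8.31, 6.83 and 7.92 in KO replicates 1, 2 and 3. KO replicates 1 and 3 were thus more than 1 log2 unit above all WT livers, and KO replicate 2 lay among them. The mean difference was 0.87 (SE 0.378, adjusted p = 0.248). Without KO replicate 2 it was 1.30 with an adjusted p of 0.0198, without KO replicate 1 it fell to 0.55 (adjusted p = 0.480), and over 13 other settings the adjusted p ran from 0.0177 to 0.484. The lines held 9.13, 8.95 and 10.09. Sox4 rose by 2.57 over the WT livers (SE 0.306, adjusted p = 0.00268). Against the KO livers it was 1.70 higher (SE 0.492) with adjusted p = 0.0663, although every line exceeded every KO liver; it passed with all 9 arrays in one fit (0.0183) and with dim genes left out (0.0445).

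Onecut2 stood at 7.93, 8.57 and 8.36 in the WT livers, 7.23, 9.30 and 6.72 in the KO livers and 10.26, 10.43 and 11.50 in the lines. The KO livers spanned 2.58 log2 units, from below every WT liver to above them all, and only the lines were separate. KO minus WT was -0.54 (SE 0.683, adjusted p = 0.646), with a 95% interval from -2.23 to 1.16. It was -1.31 without KO replicate 2 (adjusted p = 0.0475) and -0.02 without KO replicate 3 (adjusted p = 0.991). Against the WT livers Onecut2 rose by 2.45 in the lines (SE 0.368, adjusted p = 0.00594). The rise of 2.98 over the KO livers (SE 0.757, adjusted p = 0.0458) did not pass without any 1 of AS lines 1, 2 and 3 or KO replicates 1 and 3 (adjusted p from 0.0810 to 0.151).

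Several members varied with the hepatocyte genes of the livers. Across the 6 livers, Pearson's r with the hepatocyte list mean was 0.928 for Onecut2, -0.891 for Sox4, 0.809 for Sox9, 0.655 for Cd24a, 0.427 for Prom1 and 0.319 for Epcam, given as a description of 6 arrays that share their normalization. All 18 hepatocyte genes had negative KO minus WT differences, with a median of -1.48, and 0 passed the threshold. Leaving out KO replicate 2 moved the median to -2.61 with 7 genes past it. In that setting 278 of all 19938 genes passed as lower and 1671 as higher. Leaving out KO replicate 3 moved the median to -0.59 with 0 of the list, and 0 of all genes, past the threshold. With the list mean as a covariate, an alternative chosen after seeing the data, the Onecut2 difference was 0.74 (adjusted p = 0.219) and that of Sox4 0.29 (adjusted p = 0.606). Sox9, Cd24a, Prom1 and Epcam had differences of -0.65, -0.88, -0.63 and -1.01 in that fit, with adjusted p-values of 0.219 to 0.254.

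**Figure D2:**
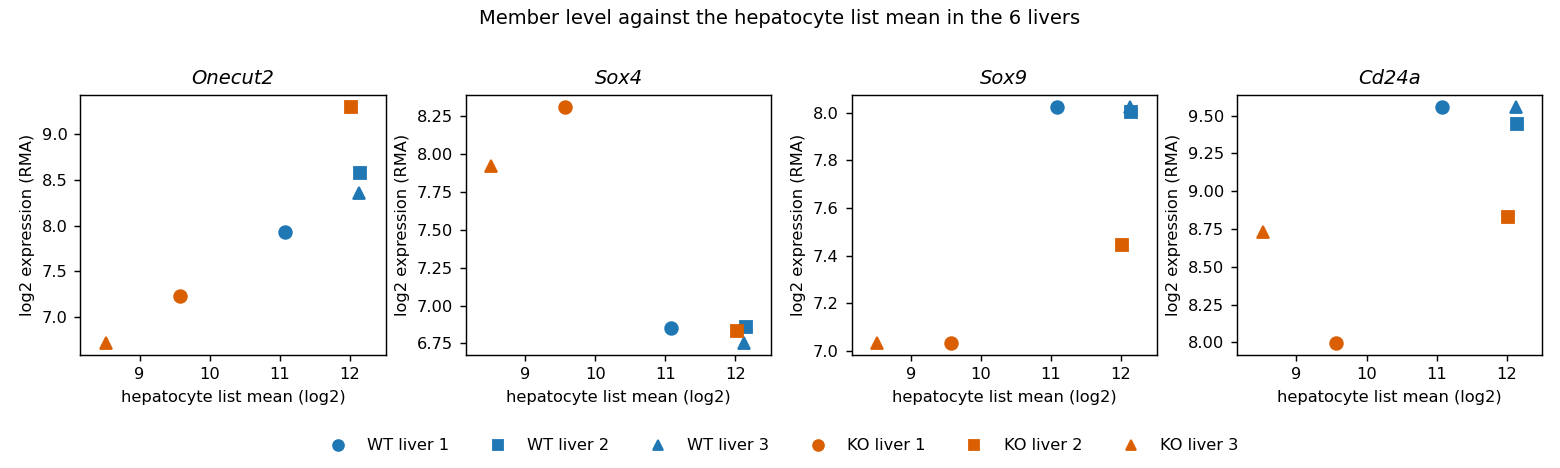
Log2 expression of Onecut2, Sox4, Sox9 and Cd24a against the mean log2 expression of 18 hepatocyte genes in the 6 livers, 1 point per array; each panel has its own vertical scale. KO replicates 1 and 3 have the lowest list means, the lowest Onecut2 and Sox9 and the highest Sox4 of the 6 livers.

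Among the surface proteins, Cd24a, a small sialoglycoprotein anchored in the membrane by a lipid, was at 9.56, 9.45 and 9.56 in the WT livers and 7.996, 8.83 and 8.73 in the KO livers. The lines held 12.62, 10.88 and 12.98, so line 2 was lower than the others by over 1.7 log2 units and the groups did not overlap. The KO livers held 49.9% of the WT level, a difference of -1.002 (SE 0.229, adjusted p = 0.112); it passed without KO replicate 2 (-1.16, adjusted p = 0.0495). Cd24a rose by 3.64 over the KO livers (SE 0.604, adjusted p = 0.0126) and by 2.64 over the WT livers (SE 0.548, adjusted p = 0.0180). The first call was lost without KO replicate 1 (adjusted p = 0.0552), and the second without WT replicate 1, 2 or 3 or AS line 1 (adjusted p = 0.0623, 0.0691, 0.0647 and 0.0519). Cd24a is also made by immature lymphocytes and red cells. The mean of 11 T, NK and B cell genes was 6.52, 8.28 and 8.42 in the WT livers, 6.49 to 6.67 in the KO livers and 5.42 to 5.65 in the lines. The part of lymphocyte and red cell content in the Cd24a difference was not tested.

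Prom1, the pentaspan protein CD133 of membrane protrusions, stood at 6.15, 5.97 and 6.09 in the WT livers and 5.45, 5.48 and 5.69 in the KO livers, below the median of its array in each. The genotype difference was -0.53 (SE 0.0919, adjusted p = 0.0995), 0.0150 with array weights and at most 0.461 over 13 other settings. In the lines it reached 9.19, 7.68 and 8.29, separate from all livers. Prom1 rose by 2.85 over the KO livers (SE 0.388, adjusted p = 0.00679), which is 7.19-fold, and by 2.32 over the WT livers (SE 0.377, adjusted p = 0.00795).

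Tspan8, a tetraspanin of epithelial surfaces, showed the widest contrast of the members. It was at 5.33, 5.07 and 4.89 in the WT livers and 5.33, 4.59 and 5.03 in the KO livers, within the lowest 22.6% of genes on each liver array. The lines held 11.05, 10.13 and 10.77, above at least 88.2% of genes. Tspan8 rose by 5.67 over the KO livers (SE 0.303, adjusted p = 0.000321), or 50.9-fold, and only 0.376% of genes had a larger absolute difference in that comparison. The rise over the WT livers was 5.56 (SE 0.261, adjusted p = 0.000101), or 47.1-fold. Since the table has no detection calls, a liver level this low can be background, and the fold would then be too small. Between the genotypes it differed by -0.11 (95% interval -0.65 to 0.43, adjusted p = 0.767), and the sign turned without WT replicate 1 (0.0065) or KO replicate 2 (0.087).

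Epcam, a cell adhesion molecule of most simple epithelia including bile ducts, did not share this rise. It stood at 6.77, 5.84 and 6.00 in the WT livers, 5.33, 5.35 and 5.49 in the KO livers and 5.71, 5.56 and 6.02 in the lines. The KO livers were lowest, and the lines overlapped the WT livers, of which replicate 1 was highest. The KO minus WT difference was -0.82 (SE 0.249, adjusted p = 0.151), and -0.54 without WT replicate 1. The AS minus KO difference was 0.37 (SE 0.137, adjusted p = 0.121), and AS minus WT was -0.44 (95% interval -1.12 to 0.23, adjusted p = 0.291).

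Cftr, the chloride channel of the duct cell's apical membrane, was at 4.67, 4.43 and 4.47 in the WT livers, 4.43, 4.29 and 4.28 in the KO livers and 4.92, 4.51 and 4.47 in the lines. These values lay within the lowest 16.3% of genes on every array, so whether Cftr was expressed at all cannot be read from them. Its differences were -0.19 between genotypes (adjusted p = 0.284), 0.30 for AS minus KO (95% interval -0.06 to 0.66, adjusted p = 0.217) and 0.11 for AS minus WT (95% interval -0.27 to 0.49, adjusted p = 0.636). The last turned to -0.10 with each array scaled to its 75th percentile and to -0.034 without AS line 1.

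The comparisons of the lines with KO and with WT livers set cultured tumour cells against an organ, with and without a shared Notch1 genotype. Against the KO livers 5 of 8 members rose (Sox9, Onecut2, Cd24a, Prom1 and Tspan8) and 0 fell, against 11.4% of all genes called higher and 10.1% lower (21.4% in either direction). All 8 lay above every KO liver, as did 24.1% of all genes. Against the WT livers 6 of 8 rose, the same 5 and Sox4, against 17.6% of all genes called higher and 11.1% lower (28.7% in either direction), and 6 of 8 lay above every WT liver, against 28.3%. The median difference of the members was 2.92 against KO and 2.38 against WT livers, beside medians over all genes of 0.05 and 0.02. Both comparisons use the same 3 lines, and the members were chosen with results of these arrays known. Without KO replicate 1 the count against KO livers was 3, with Sox9, Prom1 and Tspan8 left. In that setting 986 of all 19938 genes passed as higher and 1295 as lower.

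**Figure D3:**
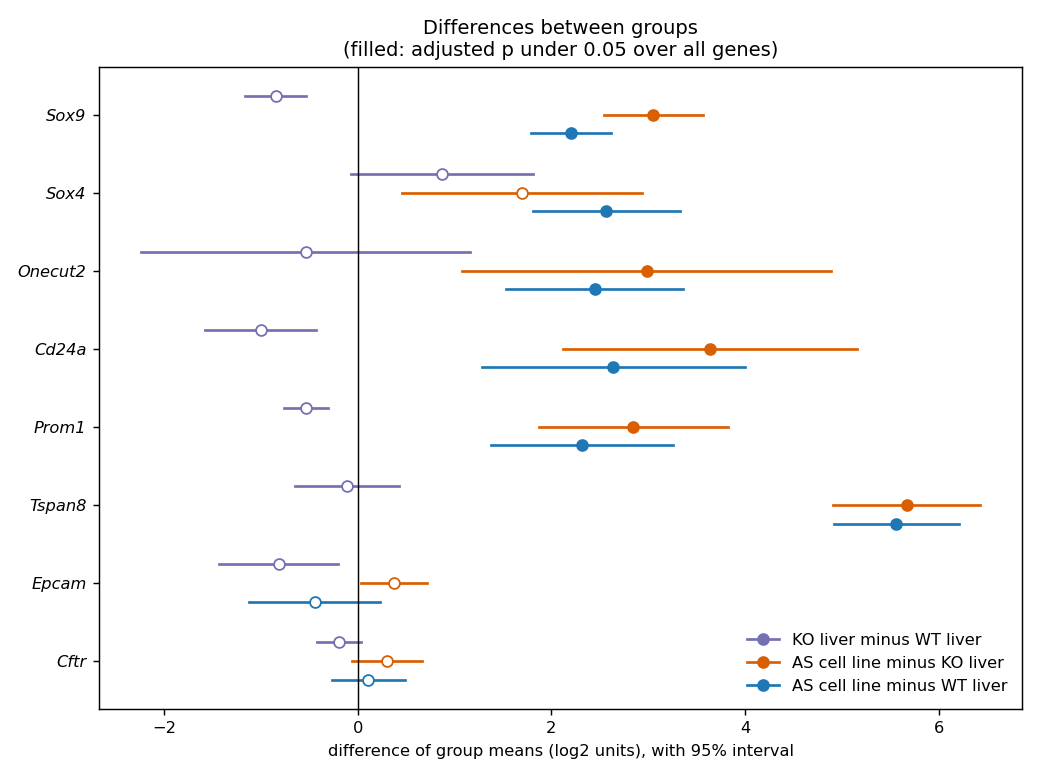
Difference of group means in log2 units, with 95% intervals, for the 8 members in the 3 comparisons; filled points have an adjusted p under 0.05 over all genes. Tspan8 differs by 5.67 and 5.56 between lines and livers, Epcam and Cftr have open points throughout, and all KO minus WT points are open.

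The order of the levels differed between members. Sox9, Cd24a and Prom1 ran from lines through WT to KO livers with no overlap between neighbours, although the step from WT to KO did not pass the threshold. Sox4 was highest in the lines and lowest in the WT livers, where KO replicate 2 overlapped. For Onecut2 and Tspan8 the lines came first and the livers overlapped. Epcam was highest in the WT livers on average, but their order with the lines was not resolved. Among the lines, line 3 was highest for Sox9, Sox4, Onecut2, Cd24a and Epcam, and line 1 for Prom1, Tspan8 and Cftr.

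Other genes of bile duct epithelium, from a list of 28 of which 27 were measured, gave the same contrast for a subset. In the KO livers all 27 had negative differences from WT, with a median of -0.38 against -0.00113 over all genes, and 0 passed the threshold. Without KO replicate 2, 26 were negative and 5 passed as lower, where 278 of all 19938 genes passed as lower and 1671 as higher. The largest were the keratins Krt8 (-1.83, adjusted p = 0.214) and Krt18 (-1.73, adjusted p = 0.343), which hepatocytes also make, the adhesion protein E-cadherin, Cdh1 (-1.62, SE 0.153, adjusted p = 0.0995), and the ciliary protein fibrocystin, Pkhd1 (-1.13, SE 0.172, adjusted p = 0.0995). Cdh1 was at 8.43, 8.09 and 8.34 in the WT livers and 6.59, 6.94 and 6.48 in the KO livers, without overlap. In the lines 13 of 27 rose over the KO livers and 0 fell (median 1.16), and 12 rose and 1 fell against the WT livers (median 0.56). Of all genes, 11.4% rose and 10.1% fell against the KO livers, and 17.6% rose and 11.1% fell against the WT livers. The count against KO livers was 9 without KO replicate 1, where 986 of all 19938 genes passed as higher. The median against WT livers was 0.11 without AS line 3.

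The keratins Krt19 and Krt7 stood out within that list. Krt23 was at 5.27, 5.85 and 6.10 in the lines and between 5.26 and 6.03 in the livers. Its difference of 0.38 from the KO livers did not pass, but did without AS line 1 (adjusted p = 0.0300). Krt19 was between 5.67 and 6.76 in all livers and at 11.82, 12.18 and 11.93 in the lines, a rise of 6.24 over the KO livers (SE 0.115, adjusted p = 2.44e-05). Krt7 was between 5.78 and 6.27 in the livers and at 12.25, 10.46 and 11.70 in the lines, a rise of 5.54 (SE 0.466, adjusted p = 0.00142). Bicc1, an RNA-binding protein of ducts and renal tubules, rose by 4.83 (SE 0.252) and Cdh1 by 4.67 (SE 0.216). The claudin Cldn7, a partner of Epcam in the membrane, was the gene that fell against the WT livers; its call was lost without any 1 of the 3 WT livers.

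**Figure D4:**
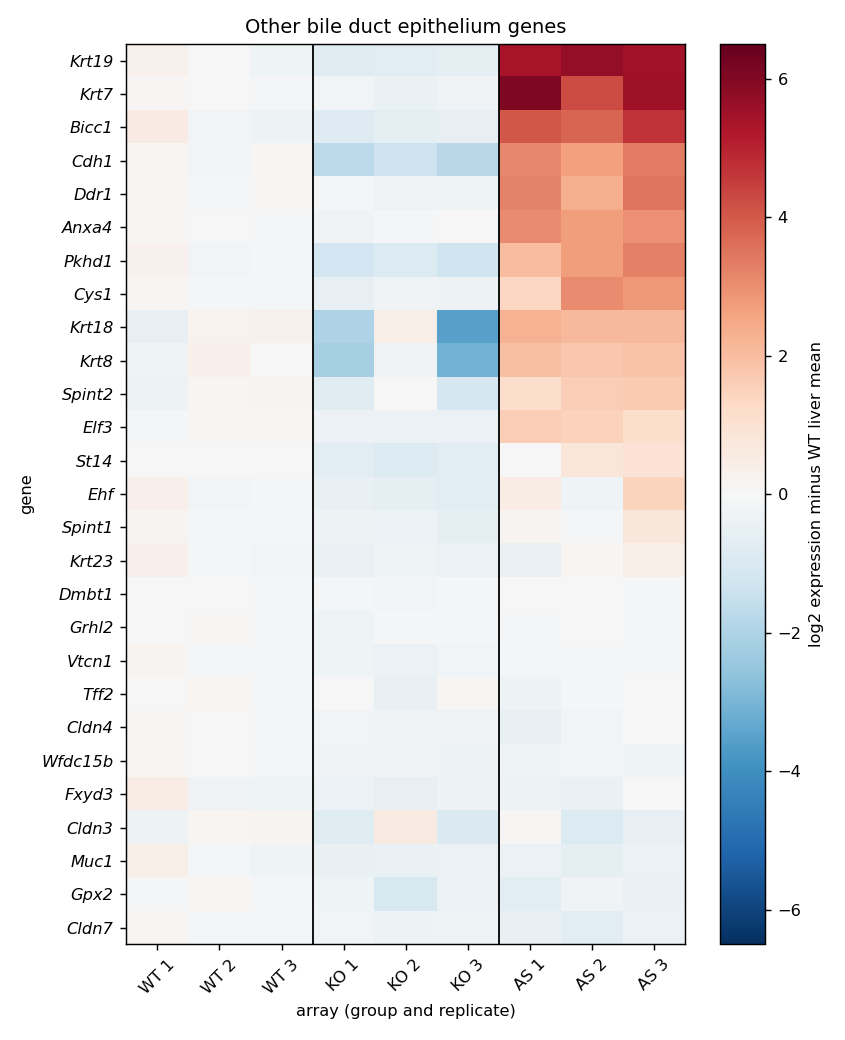
Log2 expression minus the WT liver mean for 27 bile duct epithelium genes other than the members, on each of the 9 arrays, ordered by the mean of the lines. Red at the top right marks Krt19, Krt7, Bicc1 and Cdh1 in the lines; the lower genes, among them Cldn7, stay near or below the WT level.

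Of 16 measured progenitor and hepatoblast genes other than the members, 2 rose against the KO livers and 0 fell (median 0.57), where 11.4% of all genes rose. Against the WT livers 2 rose and 1 fell (median 0.29), where 17.6% of all genes rose. The 2 were Tnfrsf12a, the receptor for the duct-cell mitogen TWEAK, with a rise of 2.72 over KO livers (SE 0.167, adjusted p = 0.000512), and Foxa2, a pioneer factor of endoderm, with one of 2.14 (SE 0.306, adjusted p = 0.00794). Lgr5, a Wnt-amplifying receptor, was the gene that fell against the WT livers (-1.47, adjusted p = 0.0465), and it was not past the threshold without any 1 of WT replicates 2 and 3 and the 3 lines. Alpha-fetoprotein, Afp, the fetal liver's serum protein, was at 6.38, 10.63 and 5.75 in AS lines 1, 2 and 3 and between 5.46 and 5.75 in the livers, so line 2 alone was high. Lcn2 was at 9.74, 13.71 and 13.20 in the lines, 9.02, 12.38 and 6.96 in the KO livers and 10.24, 11.11 and 11.44 in the WT livers. Hnf4a was at 10.95, 11.10 and 10.35 in the lines, 7.80, 10.35 and 7.16 in the KO livers and 8.84, 10.53 and 10.35 in the WT livers. Its difference of 2.36 from the KO livers did not pass. With array weights (adjusted p = 0.0485) and without KO replicate 2 (adjusted p = 0.00625) Hnf4a did pass. Between the genotypes 0 of 16 passed, and the median was -0.18.

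The Notch genes that act in duct formation were measured beside the members. Hes1, the repressor that Notch switches on, differed by -0.76 between KO and WT livers (SE 0.0901, adjusted p = 0.0995), and Jag1 differed by -0.72 (SE 0.171, adjusted p = 0.114). Of the 9 genes of the list, 0 passed between genotypes, with a median of -0.24. The deleted gene Notch1 itself, with a difference of -3.10, was among those that did not pass. Jag1 was at 10.20, 10.57 and 10.997 in the lines and between 7.29 and 8.40 in the livers, and rose by 3.02 over the KO livers (SE 0.249, adjusted p = 0.00134). Notch2 rose by 1.28 (SE 0.301, adjusted p = 0.0368), a call lost without any 1 of KO replicates 1 and 3 and the 3 lines. The other 7 genes did not pass in that comparison, Notch1 (0.03) and Hes1 (0.34) among them. Of all genes, 11.4% rose over the KO livers.

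Close relatives of the members were measured beside them. Of 7 paralogs, 0 passed between KO and WT livers and 0 between lines and KO livers. Against the WT livers 17.6% of all genes rose, and 1 of the paralogs did. This was Sox11, of the same SoxC class as Sox4, at 5.85, 5.64 and 6.08 in the WT livers, 8.50, 6.03 and 8.26 in the KO livers and 9.04, 8.36 and 8.01 in the lines. Its rise over the WT livers was 2.61 (SE 0.284, adjusted p = 0.00198), and KO minus WT was 1.74 (SE 0.671, adjusted p = 0.21), or 2.52 without KO replicate 2 (adjusted p = 0.0152). As with Sox4, KO replicates 1 and 3 were high and replicate 2 was near the WT livers. Sox12, the remaining SoxC gene, was at 7.06, 6.75 and 6.86 in the WT livers, 7.51, 7.10 and 7.77 in the KO livers and 6.96, 5.97 and 6.96 in the lines. Its KO livers were above all WT livers and all lines, with differences of 0.57 for KO minus WT (SE 0.188, adjusted p = 0.169; 0.0423 without KO replicate 2) and -0.83 for AS minus KO (SE 0.335, adjusted p = 0.151; 0.0443 with the replicate block). Onecut1 stood at 7.60, 7.19 and 6.99 in the lines, and differed by 0.05 from the WT livers (adjusted p = 0.869), where Onecut2 rose. It was at 7.02, 7.30 and 7.31 in the WT livers and 6.41, 8.28 and 6.52 in the KO livers. KO minus WT was -0.14 for Onecut1, or -0.75 without KO replicate 2 (adjusted p = 0.0323).

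Of 12 genes for ductal fluid and bicarbonate secretion, the process Cftr serves, 3 rose and 2 fell in the lines against the KO livers. In that comparison 11.4% of all genes rose and 10.1% fell. Ano1, a calcium-activated chloride channel, was at 10.74, 9.90 and 12.14 in the lines and rose by 3.77 (SE 0.639, adjusted p = 0.0133), a call lost without KO replicate 1 (adjusted p = 0.0545). The calcium release channel Itpr3 rose by 1.86 (SE 0.292, adjusted p = 0.0106). The water channel Aqp1, also abundant in endothelium, fell by 6.46 on the log2 scale (SE 0.344, adjusted p = 0.000319), and the receptor Vipr1 by 3.00 (SE 0.357, adjusted p = 0.00446). Of 9 osteopontin receptor genes, Itgav rose in the lines against KO livers and 4 fell, led by Itga8 (-5.75, SE 0.156) and Itga9 (-5.60, SE 0.143).

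Markers of other cell types also differed between lines and livers, most of them lower in the lines, and their part in the results was not tested. All 12 endothelium genes and all 12 Kupffer cell and macrophage genes fell in the lines against both liver groups, and 9 of 12 stellate cell and fibroblast genes did. Of all genes, 10.1% fell against the KO livers and 11.1% against the WT livers. The mean of 9 mesothelium genes was 6.87, 7.45 and 7.71 in the lines and 5.69 to 6.14 in the livers. Over the KO livers 3 of 9 rose, where 11.4% of all genes did, and 3 had negative differences. The median difference of the list was 0.20 against KO and 0.10 against WT livers, and Msln and Upk1b had the largest differences. Mesothelin, Msln, was at 11.65, 11.93 and 12.43 in the lines and at most at 6.32 in the livers, and Upk1b at 9.06, 11.89 and 11.51 against at most 5.61. Upk3b was at 7.37, 8.07 and 9.28 in the lines and at most at 6.70 in the livers. It rose by 1.93 over the KO livers. That call was lost with the replicate block and without KO replicate 1, 2 or 3 or AS line 2. Wt1, which defines mesothelium, stood at 6.78, 8.09 and 7.47 in the lines and at most at 6.60 in the livers. It did not pass against either liver group. Against the KO livers (1.16) Wt1 passed with array weights (adjusted p = 0.0236) and all 9 arrays in one fit (adjusted p = 0.0207). There it also passed with dim genes left out (adjusted p = 0.0494) and without AS line 1 (adjusted p = 0.0205). For the WT livers (0.92) adjusted p was 0.0150 with array weights, 0.0434 with all 9 arrays in one fit and 0.0143 without AS line 1. Lrrn4, another mesothelium gene, differed by -0.14 from the KO livers (adjusted p = 0.333). The mean of the hepatocyte list was 7.12, 8.67 and 6.94 in the lines, and 17 of 18 genes had negative differences from the KO livers. Albumin, Alb, was at 12.31, 13.67 and 12.82 in the lines and between 12.14 and 13.96 in the livers. Ttr of that list was at 12.42, 12.91 and 12.49 in lines 1, 2 and 3, and Apoa1 at 12.15, 13.17 and 9.19. Line 2 held Ahsg at 13.44 and F2 at 12.26, where lines 1 and 3 were at most at 7.23. Cyp2e1, a cytochrome of mature hepatocytes, was at 5.23, 5.58 and 5.46 in the lines and at least at 11.03 in the livers. The erythroid list, of which 6 of 10 genes were measured, had means of 5.85 to 6.92 over all arrays. Within it Alas2 was at 6.36, 10.25 and 9.09 in WT replicates 1, 2 and 3 and at most at 6.87 on the other arrays.

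The members also resembled each other across arrays. Over the 9 arrays, Pearson's r of Sox9 was 0.961 with Cd24a, 0.950 with Tspan8, 0.944 with Prom1 and 0.917 with Onecut2, and 0.200 with Epcam. These coefficients mostly reflect the contrast of lines with livers and are descriptions over arrays that share their normalization. Within the 6 livers Sox9 correlated with Cd24a at 0.926 and with Prom1 at 0.870, and with Sox4 at -0.877. Prom1 and Epcam had r = 0.887 there, and Epcam and Cftr 0.894.

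Among 9652 brighter genes, those most like Sox9 over the 9 arrays were Cdh1 (r = 0.994), Osbpl3 (0.994) and the epithelial factor Klf5 (0.992). Tspan8 was followed most closely by Rdh13 (0.997), Krt7 (0.995) and Anxa4 (0.994), and Prom1 by the kidney factor Pax2 (0.988), Bmp7 (0.984) and Lad1 (0.981). Cd24a was nearest to Ezr, which codes for ezrin (0.985), and Onecut2 to Arhgef26 (0.986). Within the 6 livers the closest were Ntn4 for Sox9 (0.994), Mest for Sox4 (0.997), Deptor for Onecut2 (0.998) and Mecom for Cd24a (0.996). Each value is the highest of 9652 coefficients over few arrays, so values this high can arise between unrelated genes. Those over 9 arrays mostly follow the contrast of lines with livers. The likeness was not tested and is a description only.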

How the data were processed

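Total RNA from 6 livers and 3 cell lines was hybridised to whole-transcript mouse arrays. The authors deposited log2 values per probe set, made with RMA and oligo per the submitters' processing notes, which name no version. All arrays have nearly 1 distribution, so a shift of most genes one way cannot be seen. Of 35556 probe sets, 21789 had 1 gene in the platform annotation, 1621 several, and 12146 are unnamed here. The probe set of highest mean was kept for each of 19938 genes. Group means were compared by pairs in limma 3.58.1 (R 4.3.3, 2-sided, 6 arrays, Benjamini-Hochberg over all genes, threshold 0.05), after the procedure was tested on simulated data. The number of arrays limits the precision.

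Members, gene lists and the rule for named genes were chosen with earlier results of these data known. The rule takes all members, up to 4 list genes of largest difference per comparison, set defining markers, and the 3 genes of highest Pearson r with a member among named genes brighter than the median gene. Alternatives were a replicate block, 1 fit of all 9 arrays, an intensity trend with a robust prior, a filter on dim genes, 75th percentile scaling, the mean of a gene's probe sets, array weights and leaving out each array. Genes singled out beyond it (Pecam1, Alb, Afp, Cldn7, Itgav, Wt1 and Cyp2e1 among them) were chosen after their values were seen. The labels give the arrays of each group as biological replicates, and the p-values set each difference of means against the spread between those arrays. Figures were drawn with matplotlib 3.10.9.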

Additional observations from a re-analysis of the deposited data

How the results depend on the processing

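Directions of the 8 members held under the settings tried but for 3 genes: Tspan8 between genotypes was 0.11 with array weights, 0.087 without KO replicate 2 and 0.0065 without WT replicate 1 (-0.28 to 0.087 over all left-out replicates), and Cftr in AS minus WT was -0.10 with 75th percentile scaling and -0.034 without AS line 1 (up to 0.19 without AS line 3). Onecut2 between genotypes was 0.74 with the hepatocyte covariate, added after seeing the data. For KO against WT livers, array weights gave 5 members past the threshold and 5744 genes, all 9 arrays in one fit gave 2 genes, and leaving out 1 replicate gave 0 to 4 members and 0 to 1949 genes; the highest of each came without KO replicate 2. Leaving out 1 replicate gave 3 to 5 members and 2281 to 4048 genes for AS lines against KO livers, and 5 to 6 members and 3397 to 5435 genes against WT livers. Deviations of same-numbered WT and KO livers had correlations of 0.31, 0.43 and -0.39 over genes. For lines and KO livers they were 0.24, 0.34 and 0.07, and for lines and WT livers 0.04, 0.17 and -0.16. The labels do not say that numbers pair animals and lines, so replicate numbers were not taken as pairs. With the replicate block, 0, 4 and 6 members passed in the 3 comparisons; Onecut2 in AS minus KO was lost (adjusted p = 0.0948). With scaling to the 75th percentile, the median over all genes became -0.18 between genotypes and -0.19 for AS minus WT. The cause of these changes was not tested. Cftr and the liver levels of Tspan8 lie where background cannot be told from expression.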

Other observations

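Sox9 had the same value on WT replicates 1 and 3, and so did Cd24a, while Tspan8 had the same value on WT replicate 1 and KO replicate 1. Any 2 of the 9 arrays shared exact values at 476 to 1614 probe sets, so such ties are common in the table. The SD of the 3 WT livers was 0.014 for Sox9 and 0.064 for Cd24a, and the ties make part of that spread 0.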
